A study of Gossypium hirsutum with 8 samples.

Results

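Among the probe sets of the Affymetrix cotton array that the platform's probe table pairs with no single gene, 83 of 23280 carried less signal in flooded roots and more signal in flooded leaves than in the matching controls. A probe set is a group of short oligonucleotides that reads 1 transcript or a few similar ones. The 83 were chosen from the table of 24132 probe sets by 3 conditions: the mean log2 signal of flooded root lay at least 1 log2 unit (2-fold) below that of control root, the mean of flooded leaf lay at least 1 unit above that of control leaf, and in each tissue the flooded arrays did not overlap the control arrays. Of the 83, 82 have no entry in the probe table, and 1 is listed there with 2 genes and is therefore not named. These probe sets are called by their array IDs, and no role can be given to them.

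The samples came from upland cotton (Gossypium hirsutum), cultivar Sicot 71, grown in soil in a glasshouse to the stage of a pair of leaves. All 8 arrays carried total RNA, in 4 groups of 2 biological replicates: whole root after 4 h under water, whole root of plants watered as usual, first leaf of plants flooded for 24 h, and first leaf of plants watered as usual. All groups share the cultivar, and no transgene or other agent is named in the labels. The root and leaf samples differ in flooding time as well as in tissue, so time and tissue cannot be told apart, and the sources used here do not say how many plants stand behind an array.

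Water fills the air spaces of flooded soil and slows the supply of oxygen, so that submerged root cells run short of it within hours and move from respiration towards fermentation. The shoot stays in air and meets the stress through the root: less water and mineral uptake, and signals such as the ethylene precursor ACC and abscisic acid that travel upward. A transcript can therefore change in one direction in the organ under water and in the other in the organ above it. In RNA from whole organs, fewer cells of a type and less transcript per cell cannot be told apart.

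The deposited values were log2 signals, with array medians between 6.14 and 6.17 for root and between 5.32 and 5.41 for leaf. The lowest value of an array lay at or above 3.99 for root and 2.49 for leaf, so levels of root and leaf were compared only after quantile normalization over the 8 arrays or as ranks within an array group. Control root replicate 2 stood apart in its upper quartile, 8.08 against 8.53 in replicate 1 and 8.47 and 8.48 in flooded root. The correlation of the replicates over all probe sets other than the manufacturer's AFFX controls was lowest in control root (0.953), followed by control leaf (0.984), flooded root (0.991) and flooded leaf (0.994). RCA1, which encodes the rubisco activase of chloroplasts, had 14.51 and 14.60 in control leaf and 5.25 and 5.89 in control root, which goes with the tissue labels; no root marker was at hand.

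The 2 conditions of change were each met by a small share of the unnamed probe sets. In root 1018 of 23280 (4.37%) were lower by the rule, and in leaf 770 (3.31%) were higher. The 83 that met both were 8.15% of the first list and 10.8% of the second. The other 3 combinations held 93 probe sets lower in both tissues, 103 higher in both and 78 higher in root and lower in leaf, so that the group studied here is close in size to its neighbours. Without control root replicate 2 the conditions were met by 118 probe sets, 74 of them among the 83, and without control root replicate 1 by 76, of which 64 were among the 83; a group left with 1 array has fewer values to overlap. No test was made of these counts, since the root and leaf differences are the values that chose the members. For the same reason every flooding difference given for a member is a description with no p-value.

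**Figure D1:**
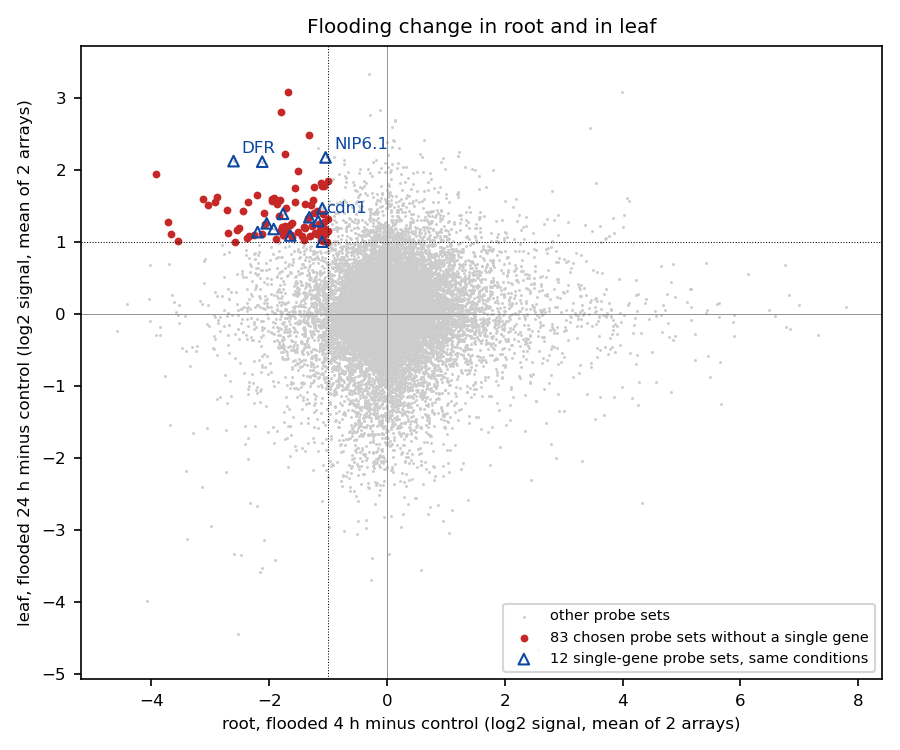
Difference between flooded and control in root (horizontal axis, log2 signal, 4 h) against the same in leaf (vertical axis, log2 signal, 24 h), each from means of 2 arrays, for all probe sets but the controls and reporters (grey), the 83 chosen ones (red points) and the 12 single-gene probe sets that met the same conditions (blue triangles). Dotted lines mark the thresholds of -1 and 1; the red points fill the upper left corner because the choice put them there.

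Across the 83 the difference in root ran from -3.92 to -1.0003 with a median of -1.64, a level 3.11-fold lower. The difference in leaf ran from 1.002 to 3.09 with a median of 1.25, a level 2.38-fold higher. For all 23280 unnamed probe sets the medians were -0.02 in root and -0.04 in leaf. The root difference was the larger of the pair in 58 of 83. A root difference of -2 or beyond was seen in 22 and a leaf difference of 2 or more in 4. The sizes in the 2 tissues did not run together across members (Pearson r = -0.02 over 83 probe sets that share the same arrays, a description only).

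GhiAffx.42527.1.A1_s_at had the largest value of the smaller of its 2 differences, the order by which leading members were picked. It read 9.83 and 9.50 in control root, 5.497 and 5.99 in flooded root, 5.06 and 6.31 in control leaf, and 8.10 and 7.15 in flooded leaf. Its mean was 9.67 ± 0.23 in control root against 5.74 ± 0.35 in flooded root (SD, n = 2 each), a 15.2-fold difference, and 5.68 ± 0.89 against 7.63 ± 0.67 in leaf, a 3.85-fold difference. Both root groups lay more than 3 log2 units apart, while the control leaf arrays were themselves 1.25 units apart.

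GhiAffx.3473.1.S1_at showed the opposite weighting, with the larger difference in leaf. Its signal was 8.58 and 8.27 in control root against 6.74 and 6.51 in flooded root, 3.48-fold lower. In leaf it was 8.21 and 8.62 in control and 11.47 and 10.98 after flooding, 7.02-fold higher. Its nearest control and flooded arrays were 1.53 units apart in root and 2.36 in leaf, the widest separation in the weaker tissue of any of the 83.

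Gra.1323.2.A1_s_at had the largest leaf difference of all members, 3.09 or 8.53-fold, from 5.02 and 4.44 in control leaf to 8.09 and 7.56 in flooded leaf. Its root values were 7.88 and 5.60 in control and 4.93 and 5.18 after flooding. The root difference of -1.69 rests on control replicate 1, since it was -0.55 without that array and -2.82 without replicate 2. Ghi.10383.1.S1_s_at was alike in this respect: the leaf went from 6.69 and 5.21 to 8.28 and 8.60, a difference of 2.49, while the root read 6.96 and 5.45 in control and 5.10 and 4.67 after flooding. Its root difference of -1.32 was -0.56 without control root replicate 1 and -2.08 without replicate 2. In both probe sets control root replicate 1 stood high and replicate 2 lay within 0.5 units of a flooded array.

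The largest root differences after that of GhiAffx.42527.1.A1_s_at were in Ghi.10562.1.S1_at and GhiAffx.6667.1.A1_s_at. Ghi.10562.1.S1_at read 10.22 and 9.71 in control root against 6.03 and 6.46 in flooded root, 13.2-fold lower, and 7.19 and 6.85 in control leaf against 8.23 and 8.35 in flooded leaf. GhiAffx.6667.1.A1_s_at read 10.04 and 9.88 in control root against 6.88 and 5.71 in flooded root, 12.7-fold lower, and 6.51 and 6.13 against 7.41 and 7.46 in leaf. In both the root arrays were at least 3 log2 units apart between groups, and the leaf difference was close to the threshold, at 1.27 and 1.11.

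Other leading members had differences of more even size in the 2 tissues. Gra.787.2.A1_s_at went from 11.86 and 10.96 to 9.31 and 9.10 in root and from 9.06 and 8.68 to 10.52 and 10.54 in leaf. GhiAffx.60328.1.S1_at went from 8.62 and 7.82 to 6.29 and 6.32 in root and from 8.20 and 7.21 to 9.14 and 9.49 in leaf. GhiAffx.47879.1.S1_s_at went from 9.84 and 10.46 to 7.996 and 8.38 in root and from 7.25 and 7.05 to 8.38 and 9.05 in leaf. In all 3 the flooded arrays lay clear of the control arrays in both tissues, as the choice requires of every member. GhiAffx.61758.1.S1_a_at had control leaf arrays 1.68 units apart, at 8.57 and 10.25. It read 11.995 and 11.87 in control root, 9.57 and 10.67 in flooded root and 11.14 and 10.86 in flooded leaf. Its leaf difference of 1.59 was 0.75 without control leaf replicate 1 and 2.43 without replicate 2.

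**Figure D2:**
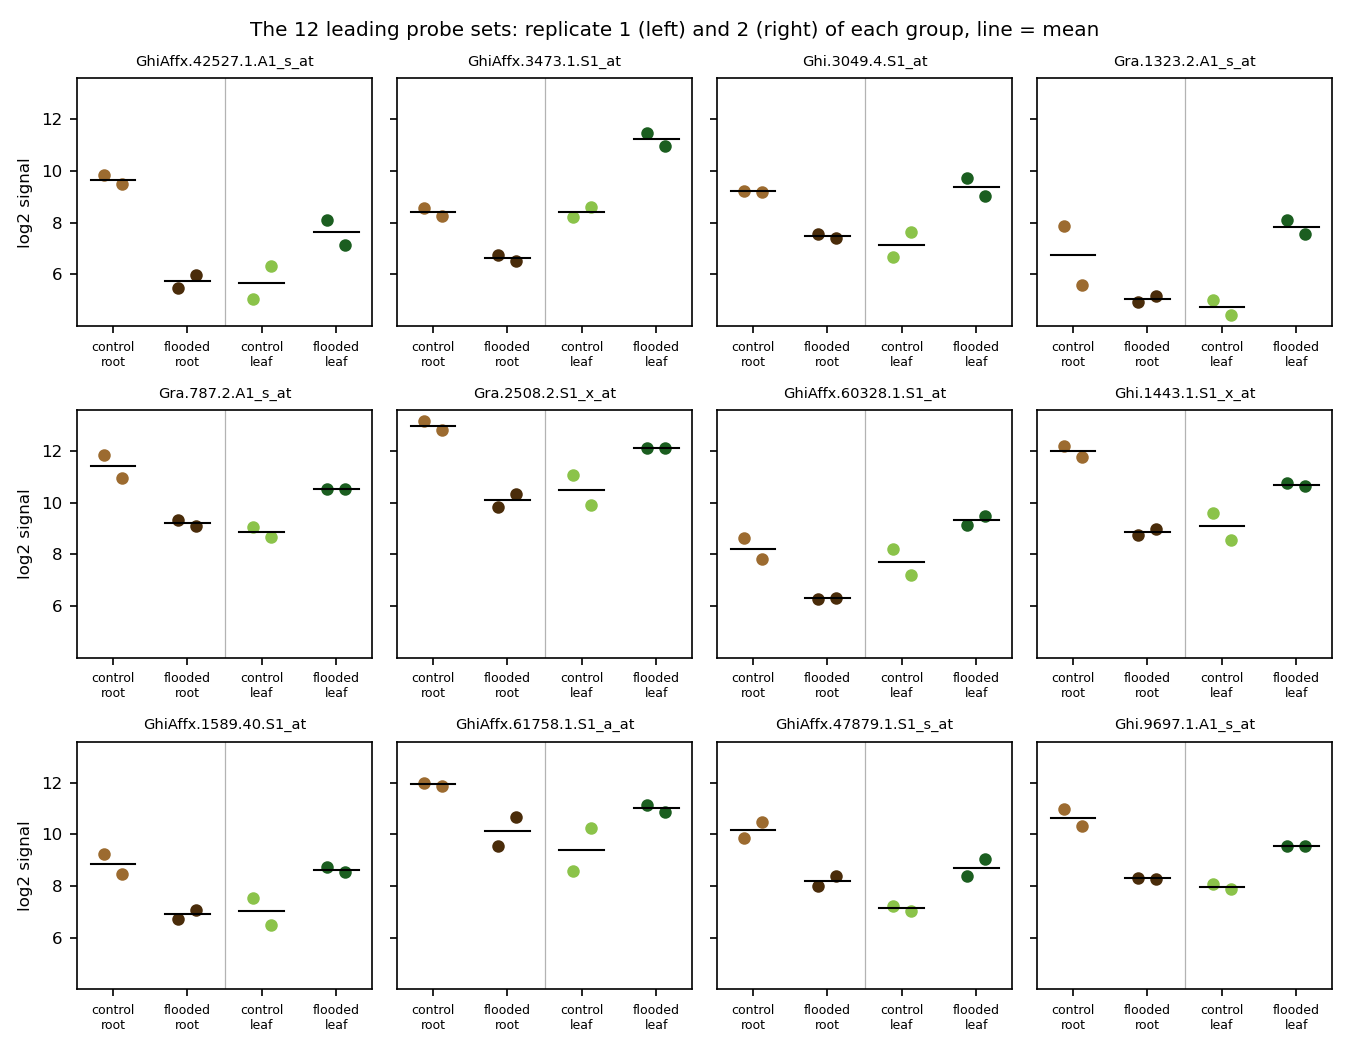
Log2 signal (vertical axis) of the 12 leading probe sets on each of the 8 arrays, replicate 1 left and replicate 2 right in each group, with lines at the group means. In each panel the flooded root points lie below the control root points and the flooded leaf points above the control leaf points, as the choice requires; control root of Gra.1323.2.A1_s_at and control leaf of GhiAffx.61758.1.S1_a_at show the widest pairs, 7.88 with 5.60 and 8.57 with 10.25.

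Some members have related IDs. The IDs of 8 members fall into 4 pairs with the same prefix and first number, here called a cluster, and the 83 members cover 79 such clusters. No sequences were at hand to compare them, and the cluster number GhiAffx.1589 also stands on probe sets that the table pairs with 5 different genes, so a shared number does not show a shared transcript. Gra.2508.2.S1_x_at and Gra.2508.1.A1_x_at were nearly superimposed: the first read 13.14 and 12.80 in control root, 9.83 and 10.35 in flooded root, 11.05 and 9.91 in control leaf and 12.10 and 12.13 in flooded leaf. The second read 13.33 and 12.97, 10.02 and 10.46, 11.19 and 10.00, and 12.10 and 12.21 in the same order. These were the brightest members in control root, and their leaf differences of 1.63 and 1.56 were 1.06 and 0.96 without control leaf replicate 2. Ghi.1443.1.S1_x_at, of another cluster, had a like profile at a lower level, with 12.19 and 11.77 in control root, 8.73 and 8.98 in flooded root, 9.61 and 8.57 in control leaf and 10.76 and 10.64 in flooded leaf. The suffix _x_at marks probe sets with probes that can also bind other transcripts, so these 3 may read some of the same transcripts, although each is 1 of the 83.

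Ghi.9697.1.A1_s_at and Ghi.9697.2.S1_s_at had like differences at unlike levels. The first read 10.96 and 10.33 in control root against 8.30 and 8.28 in flooded root, and 8.06 and 7.90 in control leaf against 9.53 and 9.56 in flooded leaf. The second, which is the one listed with 2 genes, read 8.39 and 8.16 against 5.89 and 5.76 in root and 4.79 and 4.94 against 6.29 and 6.31 in leaf. The differences of the pair were -2.35 and -2.45 in root and 1.56 and 1.44 in leaf, at levels more than 2 units apart.

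Ghi.3049.4.S1_at and Ghi.3049.1.A1_at gave differences of -1.72 and -1.56 in root and 2.22 and 1.75 in leaf. The former read 9.24 and 9.20, 7.58 and 7.41, 6.68 and 7.63, and 9.73 and 9.03 in control root, flooded root, control leaf and flooded leaf; the latter read 11.44 and 11.43, 10.09 and 9.66, 10.79 and 10.99, and 12.76 and 12.50. In both the control root replicates were almost equal. Of the other IDs of that cluster, Ghi.3049.2.S1_at had a leaf difference of 1.16 and a root difference of -0.25. Ghi.3049.3.A1_at had differences of 0.06 in root and 0.07 in leaf, and was dim in every group. Its means were 4.98 and 5.03 in control and flooded root and 3.39 and 3.46 in control and flooded leaf. The remaining pair, GhiAffx.1589.40.S1_at and GhiAffx.1589.45.S1_s_at, belongs to a cluster of 65 IDs. Their root differences were -1.95 and -1.80 and their leaf differences 1.60 and 1.17.

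Other probe sets with the members' cluster numbers were 77 that had been screened and failed at least 1 condition and 7 that the table pairs with a single gene. Of these 84, 63 were in the large cluster of GhiAffx.1589 and 21 in 18 other clusters. In those 18 clusters, 14 of 21 had a lower mean in flooded root together with a higher mean in flooded leaf, and in 7 no arrays overlapped in either tissue. Of the unnamed probe sets that were not chosen, 21.5% had means in these directions and 5.04% also had no overlap. In the large cluster the counts were 16 and 4 of 63. The clearest were GhiAffx.22064.1.S1_at, with differences of -2.22 in root and 0.64 in leaf, and Ghi.8009.1.S1_s_at, with -2.25 and 0.83. Their cluster partners among the members, GhiAffx.22064.2.S1_at and Ghi.8009.2.A1_s_at, stood at -1.64 and 1.097, and at -2.70 and 1.13. GraAffx.26728.1.S1_at missed the choice on its root side, at -0.82 with 1.19 in leaf. The remaining 7 of the 21 did not have means in these directions, among them Gra.1323.1.A1_at with 0.12 in root and -0.02 in leaf. By their means all 7 lay in every group under the bound taken below from the reporter probe sets. Gra.1323.1.A1_at stood at 4.50 and 4.61 in control and flooded root and at 3.56 and 3.54 in control and flooded leaf. Some of the 14 were under that bound in every group too, such as Gra.191.1.S1_s_at. If the bound is background, the 7 do not show whether the IDs of these clusters share the profile.

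The IDs differ in prefix and suffix. The prefix GhiAffx was on 37 of 83 (44.6%) against 27.1% of the unnamed probe sets, Ghi on 30 (36.1%) against 42.1%, Gra on 10 (12%) against 14.7% and GraAffx on 5 (6.02%) against 15.7%. The suffix _s_at, used where the probes of a set are shared by several similar transcripts, was on 43 members (51.8%) against 38.4%, and _at, used for probes that are unique on the array, on 32 (38.6%) against 53.4%. These shares were not tested.

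Ranked within each group of arrays, the median member was above the middle of the array in all 4 groups. Single members ranked as low as percentile 4.89 in flooded root and 39.1 in control leaf. The choice favours high levels in control root and flooded leaf, where a member must lie at least 1 unit above its other state. The members' median percentile among the 23280 unnamed probe sets was 81.2 in control root against 60.7 in flooded root, and 69.4 in control leaf against 83.9 in flooded leaf. Median log2 signals were 8.86 and 7.02 in root and 7.26 and 8.71 in leaf. The 52 reporter probe sets, for sequences that are not cotton genes, give a measure of background: their 95th percentile was 6.43 and 6.13 in control and flooded root and 5.60 and 5.45 in control and flooded leaf. Under that bound lay 7 members in control root, 27 in flooded root, 13 in control leaf and 0 in flooded leaf, against 50.2% of the unnamed probe sets in flooded root and 52.4% in control leaf. In the lower state of each tissue 50 members stayed above the bound in both, 20 were below it in flooded root alone, 6 in control leaf alone and 7 in both. If the bound is background, the root difference is a lower limit in the 20 members under it in flooded root but not in control root, and the leaf difference in the 13 under it in control leaf. The 7 members whose mean was under it in control root were also under it in flooded root: Ghi.10383.1.S1_s_at, Ghi.10413.1.S1_at, Ghi.5727.1.A1_at, Gra.2113.1.A1_x_at, GhiAffx.22520.1.S1_at, GhiAffx.63628.1.S1_at and GhiAffx.61812.1.S1_at. If the bound is background, the difference of their root means lies within it. All of the 7 but Ghi.10413.1.S1_at had 1 control root array above the bound, such as 7.35 in replicate 1 of GhiAffx.22520.1.S1_at.

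**Figure D3:**
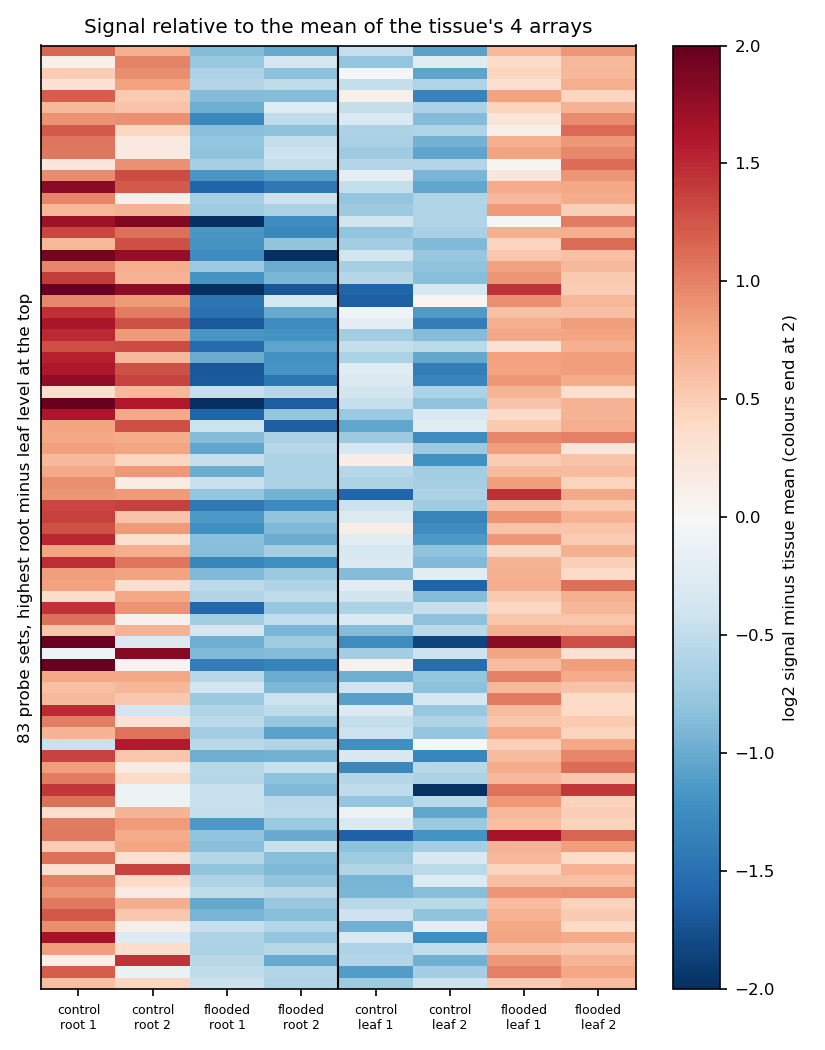
Log2 signal of each of the 83 probe sets (rows) on each of the 8 arrays (columns), minus the mean of the 4 arrays of that tissue, with red above and blue below the mean and colours ending at 2 units; rows run from the highest root minus leaf level to the lowest. Control root replicate 1 is the redder of its pair in most rows (59 of 83).

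In each group the replicates of the members lay farther apart than those of the array at large. The median gap between replicates was 0.49 log2 units in control root, against 0.39 for all unnamed probe sets, and 0.42 against 0.23 in control leaf. In the flooded groups it was 0.21 against 0.14 in root and 0.22 against 0.15 in leaf. Replicates of control root were over 1 unit apart in 13 members (15.7%, array 13.3%), and those of control leaf in 15 (18.1%, array 3.6%). In control root replicate 1 was the higher of the pair in 59 of 83 members (71.1%), against 52.9% of the array, with a median gap of 0.33 against 0.04. In control leaf replicate 1 was higher in 53 (63.9%, array 56.4%). The nearest flooded and control arrays were under 0.5 units apart in 8 members in root and in 6 members in leaf, and at least 1 unit apart in both tissues in 18. The members and the array were not matched in level: the members' median percentile ran from 60.7 to 83.9 across the groups. At least 50.2% of the unnamed probe sets lay under the reporter bound in each group. Over the whole array the upper quartile of control root was 8.53 in replicate 1 and 8.08 in replicate 2. How far level enters these gaps was not tested, nor was the part of these spreads in the flooding differences.

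Averaged over control and flooded plants, the members were divided between the tissues. This contrast sets the mean of the 4 root arrays against that of the 4 leaf arrays, and it was tested in limma over all 24029 probe sets other than the manufacturer's controls. At an adjusted p under 0.05, 38 members were higher in leaf, 19 were higher in root and 26 did not pass. Over all probe sets 53.7% passed: 24.1% were called higher in leaf and 29.5% higher in root, beside 45.8% and 22.9% of the members. The chosen differences enter this average: in each member it lies further towards leaf than the difference in control plants, on the deposited scale by at least 1.01 log2 units and at the median by 1.47. Nothing is therefore read from the members' split against the background. The median difference of root minus leaf in the members was 1.12 in control plants and -2.25 in flooded plants. On the deposited scale, on which the median of all probe sets was 1.12 higher in root, the split was 29 higher in root and 28 higher in leaf, against 73.3% and 12% of all probe sets; after quantile normalization that median was 0.08. The median tissue difference of the members was -0.47, with a range from -5.86 to 4.35.

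**Figure D4:**
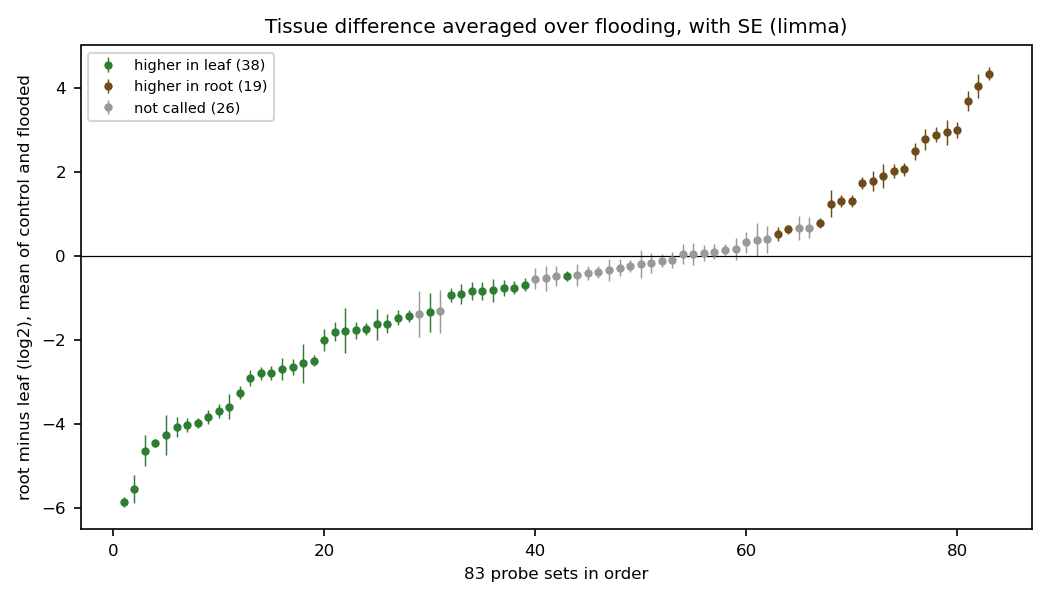
Root minus leaf level (vertical axis, log2, after quantile normalization over the 8 arrays and averaged over control and flooded) of the 83 probe sets in order, with the SE from limma; colours mark 38 higher in leaf, 19 higher in root and 26 not called. The values run without a break from -5.86 to 4.35.

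The members with the highest root level relative to leaf kept that order in flooded plants. Gra.2817.1.A1_at was 20.4-fold higher in root (log2 difference 4.35, SE 0.15, limma adjusted p = 6.4e-07). It read 11.89 and 11.48 in control root against 9.89 and 9.74 in flooded root, and 5.37 and 4.76 in control leaf and 6.49 and 6.71 in flooded leaf. Ghi.4411.1.A1_s_at (4.06, SE 0.28, limma adjusted p = 2.1e-05) and Ghi.413.1.S1_at (3.70, SE 0.24, limma adjusted p = 1.5e-05) followed. The root difference of Ghi.4411.1.A1_s_at, -1.09, was -0.65 without control root replicate 2, and the leaf difference of Ghi.413.1.S1_at, 1.09, was 0.58 without control leaf replicate 2. Of the 19 members called higher in root, 8 were under the reporter bound in control leaf. Gra.2817.1.A1_at (mean 5.07) and Ghi.4411.1.A1_s_at (mean 5.37) were among them. Their folds between tissues are lower limits if the bound is background, and their order is then not settled.

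At the other end stood members that were bright in leaf and dim in root. The measured signal of GhiAffx.61812.1.S1_at was 58.2-fold higher in leaf (log2 difference -5.86, SE 0.12, limma adjusted p = 5.4e-08), with 10.46 and 10.74 in control leaf, 11.68 and 11.77 in flooded leaf, 6.50 and 6.33 in control root against 5.46 and 5.29 in flooded root. Ghi.5727.1.A1_at (-5.55, SE 0.33, limma adjusted p = 1.0e-05) went from 9.30 and 9.73 to 11.42 and 11.18 in leaf. Its root values were 6.87 and 5.55 in control and 5.15 and 5.08 after flooding, a difference of -1.1 that was -0.44 without control root replicate 1 and -1.76 without replicate 2. GhiAffx.44111.1.S1_at (-4.64, SE 0.37, limma adjusted p = 4.45e-05) read 6.155 and 7.47 in control root, and its root difference of -1.56 was -0.90 without control root replicate 2. All 3 lay under the reporter bound in flooded root, as did 19 of the 38 members called higher in leaf. By their means GhiAffx.61812.1.S1_at and Ghi.5727.1.A1_at were under it in control root too, although replicate 1 of each was above it. The differences of their root means lie within background if the bound is background. The folds of the 3 between tissues are lower limits if the bound is background, and their order is then not settled.

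Between these ends the order of the tissues in flooded plants was the reverse of that in controls. On the scale normalized over the 8 arrays, 57 of 83 members had a higher mean in control root than in control leaf, and 12 had a higher mean in flooded root than in flooded leaf. In 45 members (54.2%) root was above leaf in control and below it after flooding, 12 were higher in root in both states and 26 higher in leaf in both. In 36 of the 45 the arrays of the 2 tissues did not overlap in either state. Such a turn was found in 12% of all unnamed probe sets, and it is favoured by the choice, which brings the 2 tissues at least 2 units towards or past each other. Turned members numbered 51 (61.4%) on the deposited scale, against 5.23% of all unnamed probe sets. With arrays centred on their medians they numbered 44 (53%), against 7.84%. The 26 members not called in the tissue contrast, with averages from -1.38 to 0.68, are among the 45, which the choice all but fixes. One of them was GhiAffx.42527.1.A1_s_at, whose normalized means were 9.43 in control root and 6.02 in control leaf, and 5.29 in flooded root and 7.89 in flooded leaf. Gra.787.2.A1_s_at went from 11.29 in root and 9.21 in leaf to 8.82 and 10.74.

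**Figure D5:**
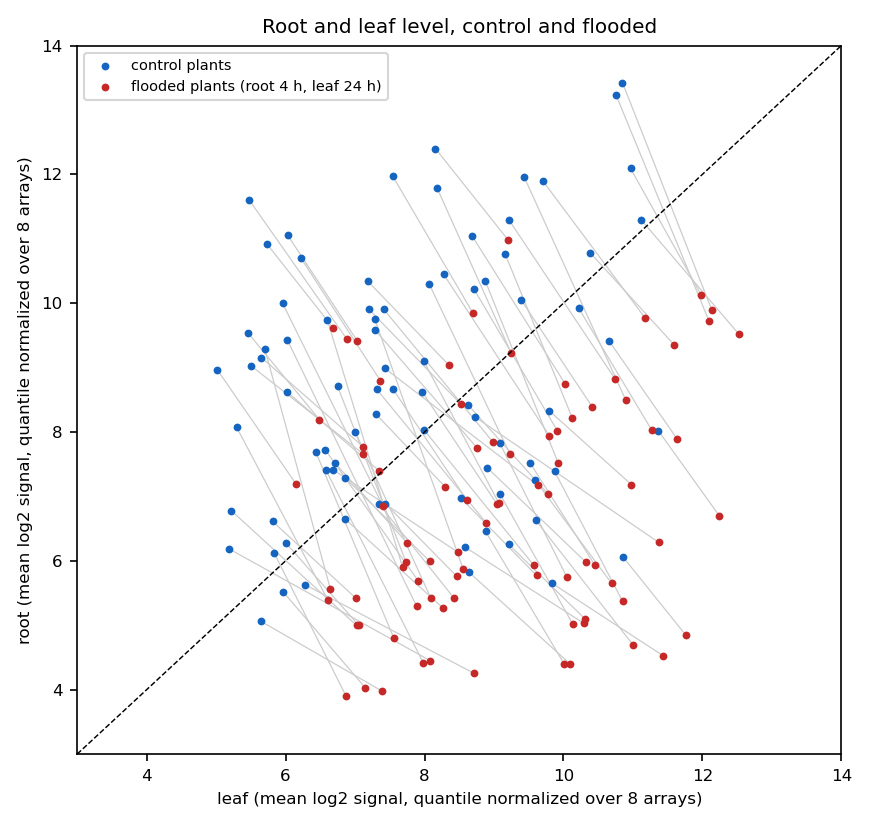
Mean log2 signal in leaf (horizontal axis) and root (vertical axis), quantile normalized over the 8 arrays, of the 83 probe sets in control plants (blue) and flooded plants (red), joined by a line for each probe set. Points above the dashed line are higher in root: 57 of the blue and 12 of the red.

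The probe table does name genes for 697 other probe sets, and 12 of these (1.72%) met the same 3 conditions. Of the 12, 6 have a symbol other than a locus number. DFR, the dihydroflavonol reductase of anthocyanin and tannin synthesis, was nearest to the leading members. It read 10.44 and 9.70 in control root, 7.42 and 7.51 in flooded root, 7.78 and 7.32 in control leaf and 9.76 and 9.59 in flooded leaf. Its differences of -2.61 and 2.13 were 6.09-fold and 4.37-fold, and the smaller of them exceeded that of each of the 83. NIP6.1, an aquaporin whose namesake in Arabidopsis carries boric acid, read 9.18 and 7.88 in control root, 7.35 and 7.62 in flooded root, 5.45 and 5.84 in control leaf and 7.98 and 7.68 in flooded leaf. Its root difference of -1.04 rests on control root replicate 1, since replicate 2 lay less than 1 unit above the flooded root mean of 7.49.

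The terpene gene cdn1 encodes a delta-cadinene synthase, the enzyme that opens the path to gossypol, and had differences of -1.17 and 1.29. It was bright in root (11.52 and 11.54 in control) and dim in leaf (4.06 and 3.95 in control, 4.99 and 5.60 after flooding). Its leaf means were under the reporter bound in both states, although flooded leaf replicate 2 was above the bound of 5.45. If the bound is background, the difference of the leaf means lies within it. MFS (-1.92 and 1.18), H6L (-2.20 and 1.14) and GLU (-1.10 and 1.01) completed the symbols. Among those with a locus number only, LOC107930062 had the largest pair of differences, -2.12 in root and 2.12 in leaf, and LOC107945804, LOC107959093, LOC107958142, LOC107931051 and LOC107958356 met the conditions too, the last of them with both root means under the reporter bound. In the tissue contrast 7 of the 12 (58.3%) were higher in root and 3 (25%) higher in leaf, beside 29.5% and 24.1% of all probe sets. The differences by which the 12 were picked enter this average too, so nothing is read from their split. Of a list of 10 probe sets for flavonoid, lignin and terpene enzymes, 2 (DFR and cdn1) met the conditions. The 2 were known from earlier results, so the list is not independent evidence of a theme, and none of this names the 83.

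The threshold lay within a dense range. Of the 83 members, 27 had a smaller difference under 1.1, and 29 other unnamed probe sets without overlap lay between 0.9 and 1. Just inside stood Ghi.8780.3.S1_s_at (-1.02 and 1.002), Ghi.10413.1.S1_at (-1.001 and 1.85) and GhiAffx.6289.1.A1_s_at (-1.0003 and 1.15). Without 1 control array some of these differences fell short of the limit. The root value of Ghi.10413.1.S1_at was -0.66 without control root replicate 1. The leaf value of GhiAffx.6289.1.A1_s_at was 0.69 without control leaf replicate 2. Just outside stood GhiAffx.53058.1.S1_s_at (-1.59 and 0.999), Ghi.9535.1.S1_s_at (-1.83 and 0.998) and GhiAffx.7880.1.S1_at (-0.99 and 1.57). A member near the limit and its neighbour outside it therefore differed by less than the spread between replicates.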

How the data were processed

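Log2 signals of 24132 probe sets on 8 arrays were deposited by the authors in 1 table, with 0 columns that match no sample. The submitters' processing notes name limma and RMA, without version, role or order; RMA in general compresses small signals. The files carry no detection call, and depth has no meaning for arrays, whose number (2 a group) limits the precision: replicates are called biological in the labels. Groups and replicate numbers came from the labels. Left out were 103 AFFX control probe sets, and 52 RPTR reporters stayed in the fit and gave the background bound. The platform table gave 1 gene for 697 probe sets and several for 46, and for those genes synonyms were looked up in RefSeq (assembly Gossypium_hirsutum_v2.1). Members and lists were chosen with earlier results of these data known.

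Flooding differences were taken from the deposited log2 values, with no pseudocount and no filter. The tissue contrast used limma 3.58.1 (R 4.3.3) after quantile normalization over the 8 arrays, with 1 mean per group and 1 shared spread. Benjamini-Hochberg adjustment was over 24029 probe sets at 0.05. The contrast was also run on simulated data with equal spread in all groups. In the real arrays the replicate SD of the unnamed probe sets (root mean square) was 0.48 in control root and 0.19 in flooded leaf. The simulation therefore cannot show how the contrast behaves under unequal spread. Named were the 12 members with the largest smaller difference, the 3 largest differences in each tissue, the 3 highest and 3 lowest in the tissue contrast, 3 on each side of the threshold, members that share a cluster, and up to 12 single-gene probe sets; cluster partners and the members with notable replicate gaps were named after their values were seen. Alternatives covered normalization, thresholds, overlap, a filter on low values, the variance model, the replicate block and each array left out. No sequence of the members was at hand, and none is printed.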

Additional observations from a re-analysis of the deposited data

Results flagged for a closer look

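Outside the chosen probe sets, 11 others from the same ID clusters had both flooded root arrays under both control root arrays and both flooded leaf arrays over both control leaf arrays, that is, opposite directions in the 2 tissues. The difference between the tissues was not tested in any of them. Leaf change minus root change was 3.09 log2 units in Ghi.8009.1.S1_s_at, 2.86 in GhiAffx.22064.1.S1_at, 2.01 in GraAffx.26728.1.S1_at, 1.72 in Ghi.5410.1.S1_s_at, 1.67 in Ghi.8780.1.S1_s_at, 1.43 in Ghi.6855.1.S1_s_at and 0.81 in Ghi.6706.1.S1_s_at. In the cluster of GhiAffx.1589 it was 1.67 in GhiAffx.1589.49.S1_at, 1.07 in GhiAffx.1589.93.S1_s_at, 0.99 in GhiAffx.1589.461.S1_x_at and 0.88 in GhiAffx.1589.1.S1_s_at. By its means Ghi.6706.1.S1_s_at lay under the reporter bound in all 4 groups, at 4.95 and 4.70 in control and flooded root and 4.39 and 4.94 in control and flooded leaf. Ghi.6855.1.S1_s_at was under it in control and flooded root (6.01 and 5.21), and GhiAffx.1589.49.S1_at in control and flooded leaf (4.56 and 5.38). If the bound is background, both changes of Ghi.6706.1.S1_s_at lie within it, and so do the root change of Ghi.6855.1.S1_s_at and the leaf change of GhiAffx.1589.49.S1_at. The other change of these last probe sets, in leaf and in root in that order, was between means above the bound.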

How the results depend on the processing

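The number chosen stayed between 80 and 90 under quantile normalization over 8 arrays (83, of which 72 were among the original 83) or within tissue (87, 75 shared), centring (90, 80 shared), a filter on low values (80) and without the overlap condition (86). It was 18 with differences of at least 1.5 log2 units and 162 with at least 0.8. Leaving out 1 array gave 76 (control root replicate 1) to 118 (control root replicate 2), and 28 of the 83 were chosen whichever array was left out. The tissue calls were 29 (root) on the deposited scale against 19, and without 1 array they ranged from 18 to 20 in root and from 31 to 42 in leaf; the 38 leaf calls became 28 on the deposited scale. With the replicate number as a block they were 20 in root and 41 in leaf. The replicate gaps of the groups correlated between -0.199 and 0.059, and the labels do not pair the replicates. With the flooded leaf numbers crossed, chosen after seeing the data, the counts were 18 and 39. The tissue difference of single members was followed in 28 of the 83. Members outside these 28 could change sign too. Ghi.8009.2.A1_s_at was called higher in leaf at first (-0.47), but its deposited means averaged higher in root. Among the 28, members near 0 in the tissue contrast, none called at first, changed sign. On the deposited scale these were Ghi.3049.4.S1_at (0.092), GhiAffx.1589.40.S1_at (0.058), Ghi.10562.1.S1_at (0.45) and Ghi.8780.3.S1_s_at (0.45). With centring they were Gra.787.2.A1_s_at (-0.19), Gra.2508.2.S1_x_at (-0.56), Gra.2508.1.A1_x_at (-0.47), Ghi.1443.1.S1_x_at (-0.27) and Ghi.9697.1.A1_s_at (-0.086). Without 1 array the tissue difference ranged from -0.12 to 0.29 in Gra.787.2.A1_s_at, from -0.22 to 0.32 in Gra.2508.2.S1_x_at, from -0.13 to 0.44 in Gra.2508.1.A1_x_at, from -0.22 to 0.31 in Ghi.1443.1.S1_x_at, from -0.0077 to 0.79 in GhiAffx.61758.1.S1_a_at, from -0.23 to 0.0097 in Ghi.10562.1.S1_at and from -0.26 to 0.10 in Ghi.8780.3.S1_s_at. The cause was not tested.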
